A study of Homo sapiens with 10 samples.

Results

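Cells recognise DNA and RNA in the cytosol through a small set of proteins. cGAS, encoded by CGAS, binds double-stranded DNA and makes the cyclic dinucleotide cGAMP, which binds STING (STING1) on the endoplasmic reticulum and lets it travel to the Golgi. RIG-I (RIGI) and MDA5 (IFIH1) bind viral-type double-stranded RNA and signal through MAVS on the outer membrane of mitochondria. Both routes recruit the kinase TBK1, which phosphorylates the transcription factor IRF3, and IRF3 then switches on IFNB1, the gene of interferon beta. DDX41 is a DEAD-box helicase that has itself been described as a DNA sensor upstream of STING, and the study asked about its part in controlling RNA-DNA hybrids.

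The 10 genes described here are the sensors IFI16, CGAS, RIGI and IFIH1, the adaptors STING1 and MAVS, the kinase TBK1, the transcription factor IRF3, the exonuclease TREX1 and the dNTPase SAMHD1. They were chosen by name for these roles, with earlier results of these data known. All 10 were found among the 63299 genes counted in the series by their Ensembl identifier without its version. The cells were U2OS, a human osteosarcoma line, which received pooled control siRNAs (control knockdown, siCtrl) or pooled siRNAs against DDX41 (DDX41 knockdown, siDDX41) for 48 h, with 5 libraries of polyadenylated RNA per group. Between 21807041 and 24896398 reads were counted in genes per library, so that 3 reads, used here as the floor of detection, correspond to 0.12 to 0.138 CPM (reads of a gene relative to the scaled total of its library). The comparison asks whether the sensing genes are transcribed in U2OS cells at all, and then how their transcripts differ once DDX41 is reduced.

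DDX41 was read first, since its level checks the labels. Its level in the control knockdown libraries 1 to 5 was 49.1, 49.4, 47.4, 47.2 and 50.5 CPM, and in the DDX41 knockdown libraries 1 to 5 it was 11.5, 13.7, 12.4, 11.2 and 12.4 CPM. Every DDX41 knockdown library lay far below every control library, and 25.1% of the control level was left (p = 0.00794 by an exact two-sided permutation of log2 CPM, which can give no smaller p with 5 libraries a group). In RNA from a whole culture, less transcript in each cell and fewer cells with the transcript cannot be told apart. Markers of the mesenchymal origin of the line were abundant, with 2465 CPM of VIM and 2807 CPM of SPARC in control libraries, whereas COL1A2 and TWIST1 were too low to be tested. Among 7 immune cell markers, CD3E had no read in any library, its most abundant gene was ITGAM, 2 were tested and neither was called. The summed level of the list lay between 0.613 and 1.33 CPM in control libraries and between 0.782 and 1.49 CPM in DDX41 knockdown libraries.

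At baseline, 9 of the 10 sensing genes were transcribed in control knockdown cells, each with more than 3 reads in all 5 libraries. Levels were compared between genes as CPM per kb of exon, because a longer transcript yields more reads. The lengths were those of GENCODE release 44, whereas the reads were counted with release 25. Exon bases added in between lower the level of a gene, by an amount that may differ between genes. IFI16, a PYHIN protein that binds DNA in the nucleus and cytosol, had the highest level of the 9 on this scale, at 14.3 ± 0.44 CPM per kb (SD, n = 5). IRF3 followed with 11.9 ± 0.46 CPM per kb and MAVS with 7.48 ± 0.32 CPM per kb. The dNTPase gene SAMHD1 (4.50 ± 0.26 CPM per kb) and the kinase gene TBK1 (3.52 ± 0.068 CPM per kb) were intermediate. Among the sensors other than IFI16, CGAS was at 2.59 ± 0.16, RIGI at 1.99 ± 0.072 and IFIH1 at 1.61 ± 0.078 CPM per kb. STING1 had the lowest level of the 9, at 1.08 ± 0.085 CPM per kb, with 109 to 135 reads per library. No pair of neighbours in this order overlapped over the 5 libraries. The ends of the order did not depend on the length used, but its middle did, since with the longest transcript as the length SAMHD1 (8.87 CPM per kb) and TBK1 (8.70) stood above MAVS (7.51), and RIGI (4.15) above CGAS (3.37).

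**Figure D1:**
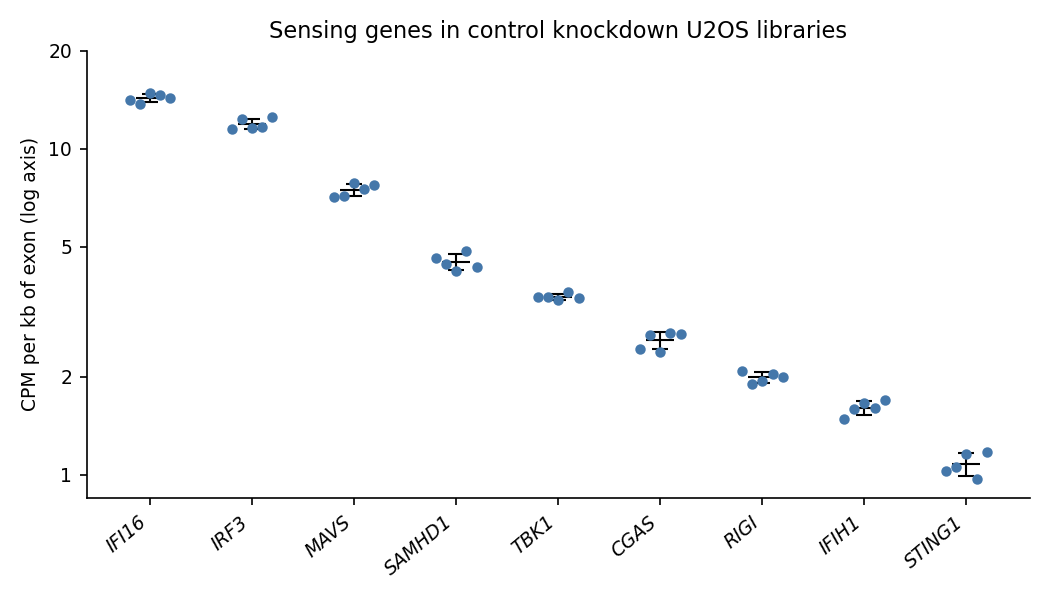
Level of the 9 sensing genes with reads in the control knockdown libraries, as CPM per kb of exon on a log axis; points are the 5 libraries, and bars are the mean and SD. The genes run from IFI16 at 14.3 to STING1 at 1.08 CPM per kb, and no 2 neighbours overlap.

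TREX1 (ENSG00000213689.10, plus strand, chr3:48465811-48467645), the exonuclease that degrades DNA in the cytosol, was listed at 0 in all 10 libraries, and this value could not be read as absence. Its exons lie entirely (100%) within those of ATRIP on the same strand, and ATRIP itself, whose product recruits the checkpoint kinase ATR, had at most 10 reads in a library. A read in exons shared by a pair of genes on one strand belongs to neither in many counting settings, and the setting used for these files is not given in the sources used here. Of 13 protein-coding genes whose exons lie wholly within another gene on the same strand, 9 (69.2%) were listed at 0 in every library, compared with 14.0% of the other protein-coding genes. These sets were not matched for expression, and nesting was taken from GENCODE release 44, whereas the reads were counted with release 25. Whether nesting accounts for the 0 of TREX1 was not tested. SURF4, a widely expressed gene of export from the endoplasmic reticulum, was listed at 0 as well, so that a gene listed at 0 was not read as absent. TREX1 therefore has no baseline value and entered no test.

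Against this baseline, most of the measured sensing genes were slightly higher in DDX41 knockdown cells, STING1 was 2.95-fold higher and MAVS was lower. With edgeR's quasi-likelihood test over all 16143 genes that passed the filter on low counts, called at a Benjamini-Hochberg adjusted p under 0.01, 6 of the 9 tested sensing genes were higher, 1 was lower and 2 were not called. Over all tested genes, 30.3% were called higher and 32.1% lower (62.4% in either direction), so that a call by itself was common in this comparison. In CPM, 6 sensing genes had all 5 DDX41 knockdown libraries above all control libraries and 1 had all 5 below, where 26.7% and 29.3% of all tested genes did so; RIGI was among these 6 and SAMHD1 was not. The median log2 fold change of the 9 was 0.16, and that of all tested genes was -0.0014. For 7 of the 9, the log2 fold change lay within 0.5 of 0. The p-values measure the spread between these libraries, which the labels do not describe as separate cultures.

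Other properties of the libraries differed between the groups as well. Mitochondrially encoded genes took 1.14 to 1.69% of reads in control libraries and 2.00 to 2.29% in DDX41 knockdown libraries, without overlap. The number of genes with at least 1 read lay between 24583 and 24880 in control libraries and between 24012 and 24461 in DDX41 knockdown libraries, also without overlap. Of 5 reference genes often used to scale expression, GAPDH (log2 fold change -1.10), HPRT1 (-1.82) and ACTB (-0.29) were lower, PPIA (0.14) was higher, and TBP (0.08) was not called. Of 5 epithelial markers, KRT5, KRT14 and CLDN4 were lower and EPCAM and CDH1 were not called. The summed level of this list lay between 57.6 and 64.2 CPM in control libraries and between 23.3 and 27.7 CPM in DDX41 knockdown libraries, and CLDN4 was its most abundant gene. Of 7 mesenchymal markers, SPARC was higher, RUNX2 and VIM were lower, and COL1A1 and FN1 were not called, with sums of the list between 8694 and 9020 CPM in control libraries and between 8605 and 8908 CPM in DDX41 knockdown libraries. With a GC correction, VIM was not called (log2 fold change -0.07, edgeR adjusted p = 0.0147) and FN1 was called lower (-0.24, edgeR adjusted p = 0.00432), and FN1 was also called lower without control replicate 2 (-0.25, edgeR adjusted p = 0.000929) or 3 (-0.15, edgeR adjusted p = 0.000252). Whether any of these shifts has a part in the sensing gene values was not tested.

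**Figure D2:**
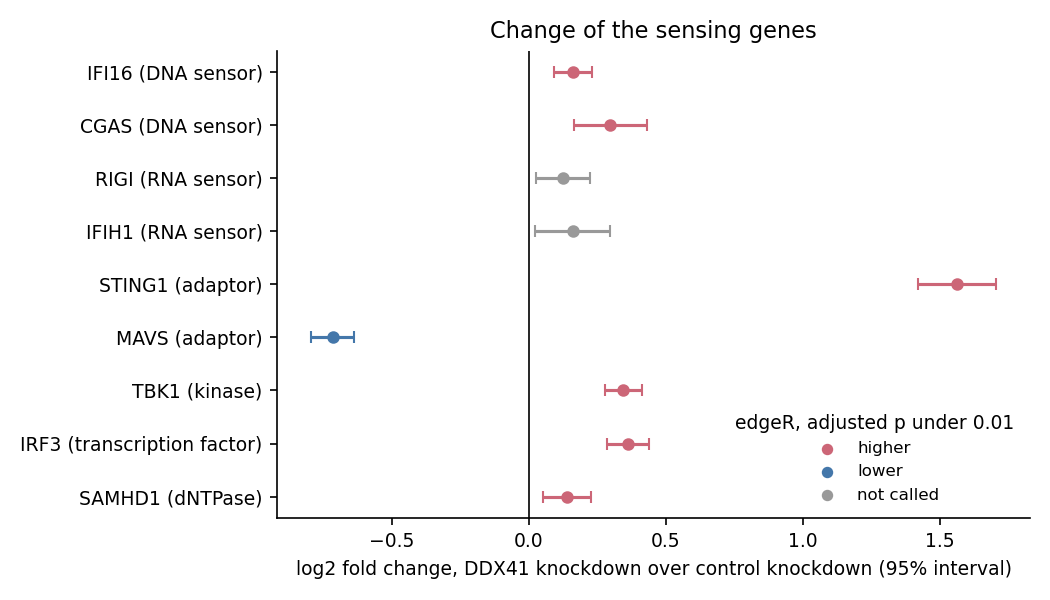
Log2 fold change of the 9 tested sensing genes, DDX41 knockdown over control knockdown, with 95% intervals from edgeR's fit; colours give the call at an adjusted p under 0.01. STING1 (1.56) and MAVS (-0.71) stand apart from the other 7, which lie between 0.13 and 0.36.

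The DNA sensors rose by small amounts. CGAS (ENSG00000164430.15, minus strand, chr6:73413515-73452297) was at 10.2, 11.2, 9.97, 11.3 and 11.3 CPM in control libraries 1 to 5. In DDX41 knockdown libraries 1 to 5 it was at 13.2, 13.4, 13.6, 14.5 and 11.6 CPM. The groups did not overlap, although the lowest DDX41 knockdown library, replicate 5, came close to the highest controls. The log2 fold change was 0.30 (SE 0.07, edgeR adjusted p = 1.79e-04), on 237 to 341 reads per library. CGAS shares 4.31% of its exon bases with DDX43, a helicase gene on the opposite strand, whose log2 fold change of 0.14 (SE 0.05, edgeR adjusted p = 0.015) was not called. IFI16 (chr1:158999968-159055155, plus strand) went from 75.9 ± 2.32 to 84.8 ± 3.75 CPM (SD, n = 5 each). Its lowest DDX41 knockdown library (81.0 CPM) was still above its highest control (78.6 CPM). The log2 fold change of IFI16 was 0.16 (SE 0.03, edgeR adjusted p = 1.3e-04), and with a GC correction it was 0.095 (edgeR adjusted p = 0.00512).

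The RNA sensors did not reach the threshold. RIGI (chr9:32455302-32526208, minus strand) was at 20.6 ± 0.75 CPM in control libraries and 22.5 ± 1.06 CPM in DDX41 knockdown libraries (SD, n = 5 each). The lowest DDX41 knockdown library (21.6 CPM) only just exceeded the highest control (21.5 CPM), and the log2 fold change was 0.13 (SE 0.05, edgeR adjusted p = 0.021). IFIH1 (chr2:162267074-162318684, minus strand) was at 8.39 ± 0.41 and 9.38 ± 0.50 CPM, and its groups overlapped. Its log2 fold change was 0.16 (SE 0.07, edgeR adjusted p = 0.0349). The 95% interval of the log2 fold change was 0.03 to 0.23 for RIGI and 0.02 to 0.30 for IFIH1. With a GC correction the log2 fold change of RIGI was 0.07 (edgeR adjusted p = 0.189), and at a threshold of 0.05 without it both genes would be called higher. LGP2 (DHX58), the relative of these sensors that lacks their signalling domains, was too low to be tested, with 6 to 14 reads per library.

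The adaptors changed most, and in opposite directions. STING1 (ENSG00000184584.12, minus strand, chr5:139475533-139482935) was at 4.94, 5.06, 5.55, 4.66 and 5.62 CPM in control libraries 1 to 5. In DDX41 knockdown libraries 1 to 5 it was at 15.2, 14.1, 16.2, 15.7 and 15.1 CPM. Each DDX41 knockdown library was far above every control, and the spread within either group was small beside the gap. The log2 fold change was 1.56 (SE 0.07, edgeR adjusted p = 4.23e-18), a 2.95-fold rise. Only 119 of all tested genes (0.737%) had a larger rise. Per kb of exon, STING1 reached 3.18 ± 0.16 CPM per kb (SD, n = 5), the same mean as CGAS in those libraries (3.18 ± 0.25), whereas it had been below CGAS in every control library. With the longest transcript as the length, STING1 (4.77 CPM per kb) stood above CGAS (4.14) in the mean of the DDX41 knockdown libraries.

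MAVS (ENSG00000088888.17, plus strand, chr20:3846799-3876123) was at 83.9, 84.4, 92.3, 88.8 and 91.0 CPM in control libraries 1 to 5. In DDX41 knockdown libraries 1 to 5 it was at 51.3, 58.8, 52.4, 53.5 and 52.3 CPM. All DDX41 knockdown libraries were below all controls, and replicate 2 was above the other 4 of its group. The log2 fold change was -0.71 (SE 0.04, edgeR adjusted p = 3.18e-16), and 1723 tested genes (10.7%) fell further. The same replicate 2 had the highest DDX41 level of its group (13.7 CPM) and the lowest STING1 level (14.1 CPM), and whether these go together was not tested. Without it the log2 fold change of MAVS was -0.75 and that of STING1 was 1.59. With both changes, the reads of STING1 per 100 reads of MAVS went from 5.87 ± 0.36 to 28.5 ± 2.68 (SD, n = 5 each), with single libraries at 5.25 to 6.18 and 23.9 to 30.8. This ratio needs no scaling between libraries; it was chosen after the values were seen and was not tested.

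**Figure D3:**
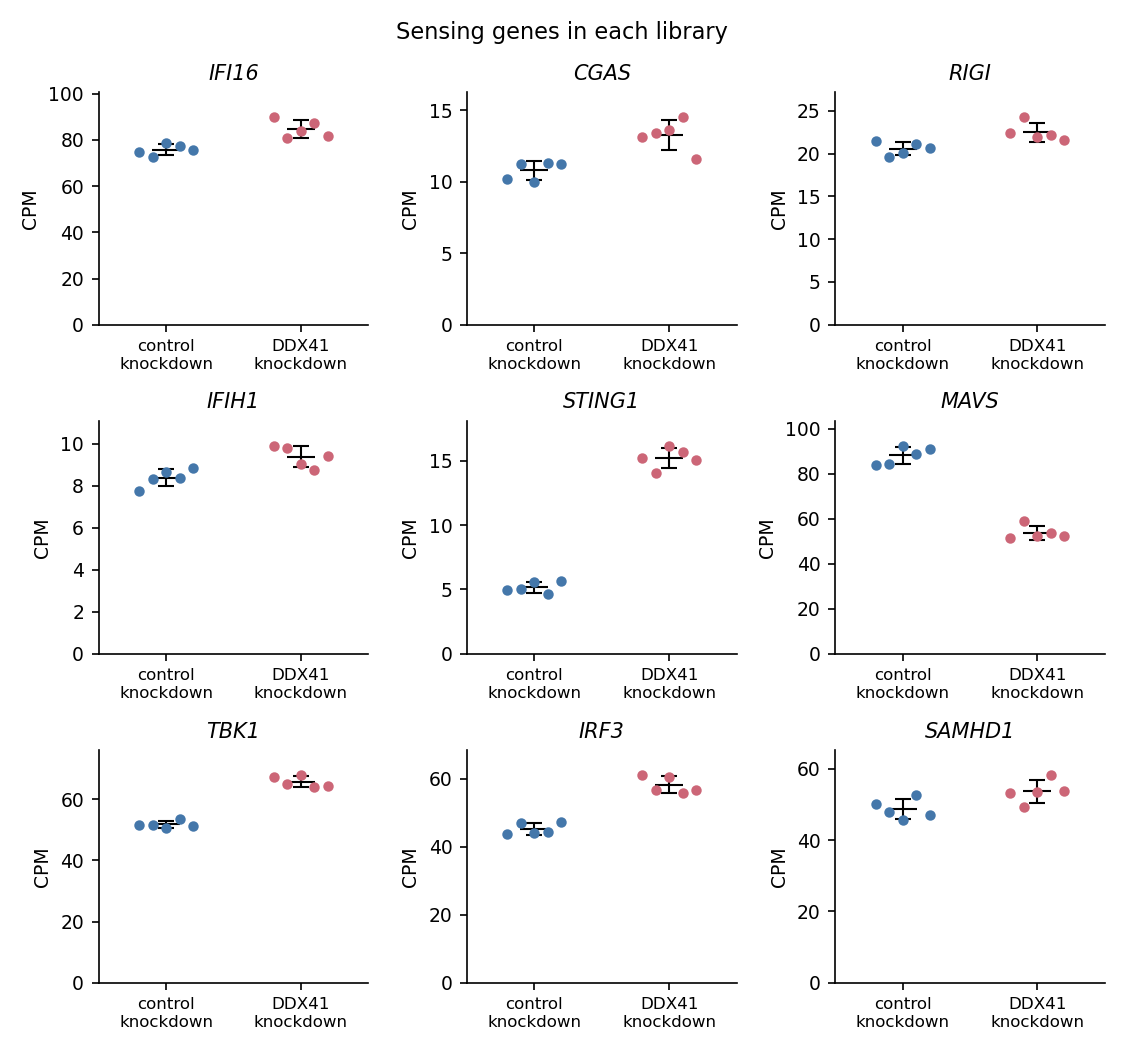
CPM of the 9 sensing genes with reads in each library, with 1 panel per gene and axes from 0; points are the 5 libraries of each group in order of replicate number, and bars are the mean and SD. STING1 (5.17 to 15.2 CPM in the mean) and MAVS (88.1 to 53.7 CPM) show the widest gaps, and the groups overlap for IFIH1 and SAMHD1.

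The kinase and the transcription factor where both routes meet rose together. TBK1 (ENSG00000183735.9, plus strand, chr12:64452090-64502114) was at 51.7, 51.7, 50.6, 53.4 and 51.3 CPM in control libraries 1 to 5. In DDX41 knockdown libraries 1 to 5 it was at 67.2, 64.9, 67.9, 64.0 and 64.4 CPM. No library of one group came near the other group, and the log2 fold change was 0.34 (SE 0.03, edgeR adjusted p = 1.89e-10). IRF3 (ENSG00000126456.15, minus strand, chr19:49659569-49665875) was at 43.7, 46.9, 44.0, 44.3 and 47.4 CPM in control libraries 1 to 5. In DDX41 knockdown libraries 1 to 5 it was at 61.1, 56.6, 60.7, 55.9 and 56.6 CPM. The groups were again well apart, with a log2 fold change of 0.36 (SE 0.04, edgeR adjusted p = 1.08e-09). IRF3 shares 19.3% of its exon bases with BCL2L12, a BCL2 family gene on the opposite strand with nearly as many reads (99.3% of those of IRF3). BCL2L12 rose too, by a log2 fold change of 0.49 (SE 0.04), and because the strand setting of the counting is not given, the reads of the shared bases cannot be assigned to either gene with certainty.

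IKBKE, which encodes the close relative of TBK1 called IKK epsilon, moved the other way. It was at 16.6 ± 0.77 CPM in control libraries and 9.53 ± 0.68 CPM in DDX41 knockdown libraries (SD, n = 5 each), with no overlap. Its log2 fold change was -0.80 (SE 0.06, edgeR adjusted p = 1.21e-12). The reads of TBK1 per 100 reads of IKBKE were 313 ± 15.2 in control libraries and 693 ± 67.7 in DDX41 knockdown libraries, another ratio chosen after the values were seen and without a test.

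SAMHD1 (ENSG00000101347.8, minus strand, chr20:36890229-36951893), which breaks down the nucleotides that reverse transcription needs, was the sensing gene nearest to the threshold among those called. It was at 50.2, 47.9, 45.6, 52.8 and 47.0 CPM in control libraries 1 to 5, and at 53.3, 49.4, 53.5, 58.3 and 53.8 CPM in DDX41 knockdown libraries 1 to 5. The groups overlapped, since DDX41 knockdown replicate 2 lay below control replicates 1 and 4. The log2 fold change was 0.14 (SE 0.04, edgeR adjusted p = 0.00485). The call was lost without control replicate 3 (log2 fold change 0.12, edgeR adjusted p = 0.0181), without control replicate 5 (0.13, edgeR adjusted p = 0.0174) and without DDX41 knockdown replicate 4 (0.11, edgeR adjusted p = 0.0251).

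The members with the widest changes were then set beside the whole table to find the genes most like them. For STING1, the highest Pearson correlations of log2 CPM over the 10 libraries were those of GABPB2 (0.998), IFNAR1 (0.996) and GALC (0.996). Each of these rose, by log2 fold changes of 0.90, 0.63 and 0.79. For MAVS, KIAA1217 (0.998) and CBLB (0.996) were among the highest, and they fell by 0.74 and 0.95 on the log2 scale. These coefficients follow mainly from the gap between the 2 groups of libraries, and 122 genes exceeded 0.99 with STING1 and 156 with MAVS, so they describe similarity of pattern only. IFNAR1, a subunit of the receptor for type I interferon, belongs to the pathway list described further on.

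The genes around the sensing genes were counted in 8 lists of related function, by the same edgeR calls. Each of their counts stands beside the 30.3% of all tested genes that were higher and the 32.1% that were lower (62.4% in either direction), and no list was tested. The other DNA sensors and their cofactors had 14 genes, of which 9 were tested, with 4 higher, 4 lower and 1 not called (median log2 fold change 0.08). ZCCHC3, a cofactor of cGAS, rose by 0.45 (SE 0.04), and BANF1, which coats DNA and keeps cGAS off it, fell by 0.39 (SE 0.03). XRCC5, the large subunit of the Ku complex that binds DNA ends, rose by 0.21 (SE 0.02), and MRE11, the nuclease of the MRN complex, fell by 0.24 (SE 0.04). The inflammasome sensor AIM2, the Z-nucleic acid sensor ZBP1 and TLR9 had at most 3 reads in any library and were not tested. The other RNA sensors and their cofactors had 16 genes, of which 12 were tested, with 6 higher, 2 lower and 4 not called (median 0.13). The antiviral zinc finger gene ZC3HAV1 (0.29, SE 0.03) and OAS3 (0.31, SE 0.04), an oligoadenylate synthetase gene, were higher, and PRKRA (-0.34, SE 0.04), which encodes an activator of the kinase PKR, was lower. TLR7 had at most 1 read in a library and TLR8 none.

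Most tested genes of the list that carries, places or turns over STING and its ligand were called lower. Of 15 genes in this list, 13 were tested, with 2 higher, 9 lower and 2 not called, and the median log2 fold change was -0.25. Many of the falls were small. With an absolute log2 fold change above 0.5 required in addition, 3 were lower and 0 higher. LRRC8A, a subunit of a volume-regulated channel that passes cGAMP, went from 122 ± 6.81 to 66.4 ± 2.78 CPM (SD, n = 5 each) and its log2 fold change was -0.87 (SE 0.04). RNF26, a ubiquitin ligase of the endoplasmic reticulum that acts on STING, had a log2 fold change of -0.86 (SE 0.04). STIM1, the calcium sensor that holds STING in the endoplasmic reticulum, had -0.57 (SE 0.04). NPC1, the lysosomal cholesterol transporter, was higher (0.34, SE 0.03). SURF4 was listed at 0 in every library and RNF5 had 2 reads in a single library and none in the others.

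The remaining adaptors, kinases and transcription factors of the pathway went both ways, with 7 higher, 5 lower and 6 not called among 18 tested of 19 genes (median 0.06). OPTN, an autophagy receptor that binds TBK1, was at 84.6 ± 3.49 CPM in control and 149 ± 3.49 CPM in DDX41 knockdown libraries (SD, n = 5 each) and rose by 0.82 on the log2 scale (SE 0.03). TRAF3, a ubiquitin ligase between MAVS and TBK1, was higher (0.60, SE 0.05), and RIPK1, a kinase of cell death and NF-kB signalling, was lower (-0.60, SE 0.04). IRF7 was listed at 0 in every library. Inhibitors of the pathway had 3 higher, 6 lower and 4 not called among 13 tested of 16 genes (median -0.01). PCBP2, which promotes degradation of MAVS, had a log2 fold change of -0.89 (SE 0.03) and fell from 252 ± 6.84 to 136 ± 1.90 CPM (SD, n = 5 each). NLRX1 (-0.58, SE 0.06), a mitochondrial NLR protein, and NLRC5 (-0.77, SE 0.07) were lower as well, and TNFAIP3, which encodes the ubiquitin-editing enzyme A20 and is a target of NF-kB, was higher (0.62, SE 0.07).

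The enzymes that clear nucleic acids had 5 higher, 4 lower and 2 not called among 11 tested of 13 genes (median 0.12). Both kinds of RNase H moved, in different directions. RNASEH1, the single-subunit enzyme that cuts RNA in RNA-DNA hybrids, rose by 0.43 (SE 0.04), and RNASEH2C, a subunit of the trimeric enzyme, fell by 0.53 (SE 0.04). PNPT1, a mitochondrial exonuclease that keeps double-stranded RNA out of the cytosol, rose by 0.47 (SE 0.03), and LSM11, which takes part in processing histone transcripts, rose by 0.74 (SE 0.06).

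At the end of the pathway, none of the 5 interferon genes listed had a read. IFNB1, IFNA1, IFNL1, IFNL2 and IFNL3, as well as the chemokine gene CCL5, were listed at 0 in all 10 libraries, CXCL10 had at most 1 read in a library and RSAD2 at most 4. For each library this allows up to 3 reads of each gene at 0, or 0.12 to 0.138 CPM, which is a limit of counting only. It does not cover overlapping or multi-mapping reads that the counting may have left out. The handling of such reads is not given, so these genes were not read as absent. Among the 11 tested of 19 interferon and output genes, 5 were higher, 4 were lower and 2 were not called (median 0.22). IFIT3, a direct IRF3 target, was at 2.86, 2.37, 3.57, 3.08 and 2.37 CPM in control libraries 1 to 5 and at 8.05, 8.38, 8.83, 8.82 and 8.47 CPM in DDX41 knockdown libraries 1 to 5. Every DDX41 knockdown library was above every control, with a log2 fold change of 1.58 (SE 0.10, edgeR adjusted p = 5.5e-15). OASL, which enhances signalling by RIG-I, was at 10.0, 8.04, 8.37, 8.04 and 9.08 CPM in control libraries 1 to 5 and at 1.38, 1.74, 1.94, 1.32 and 1.62 CPM in DDX41 knockdown libraries 1 to 5. It was lower in every DDX41 knockdown library, with a log2 fold change of -2.44 (SE 0.11, edgeR adjusted p = 4.38e-18). IFI44 fell by 0.60 (SE 0.05).

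The receptors of interferons and their kinases had 4 higher, 3 lower and 1 not called among 8 tested of 9 genes (median 0.07), and with a GC correction and a replicate block together 2 were higher. Both chains of the receptor for type I interferon rose, IFNAR1 by 0.63 (SE 0.03) and IFNAR2 by 0.33 (SE 0.05). IFNLR1, the specific chain of the receptor for type III interferon, fell by 0.79 (SE 0.09), and the kinase JAK1 fell by 0.26 (SE 0.03).

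**Figure D4:**
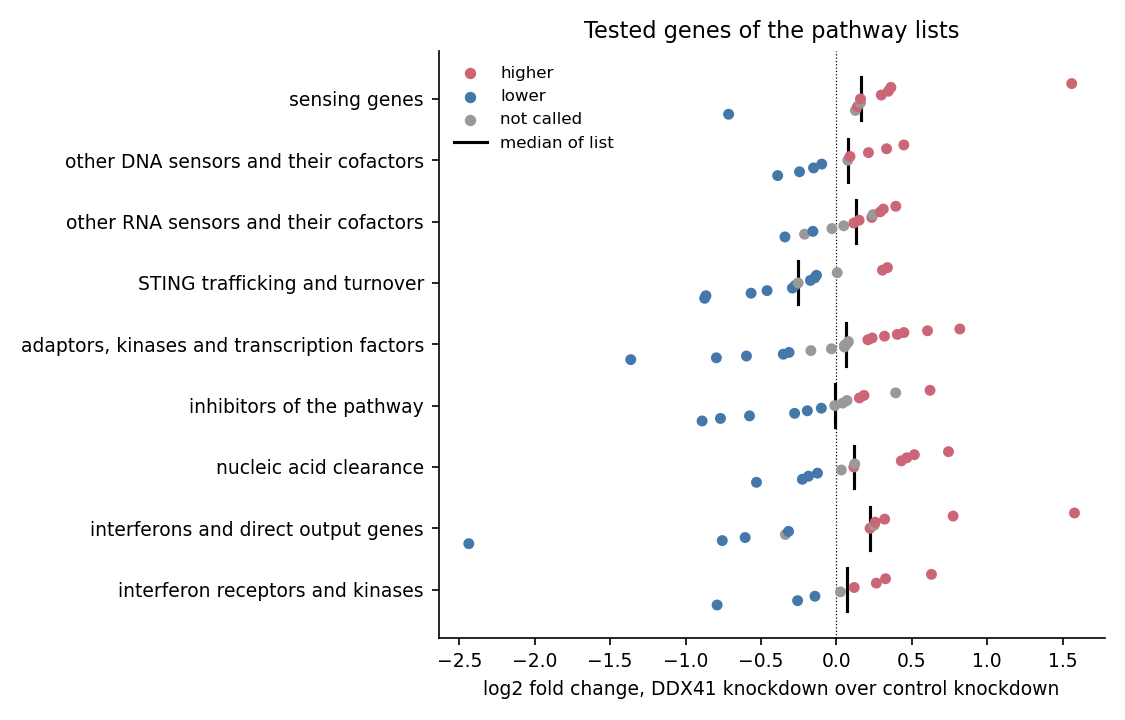
Log2 fold changes of the tested genes of the sensing list and of 8 lists around it, DDX41 knockdown over control knockdown; each point is a gene, colours give the edgeR call at an adjusted p under 0.01, and the black bar is the median of the list. The median lies at -0.25 for STING trafficking and turnover and between -0.01 and 0.22 for the lists other than that one.

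The promoters of the members were compared with those of the output genes, because IFIH1 and IFIT3 are both known targets of interferon and of IRF factors. Promoter sequences of 7 of the 10 members were in the RefSeq table used (GRCh38.p14, 250 bases before to 50 bases after the start), and those of CGAS, STING1 and IRF3 were not. The core of the interferon-stimulated response element, searched as GAAA, any 2 bases and GAAA on both strands, was found in 3.57% of all 35116 promoters. Counted by gene, with a match in any of its promoters, it was found in 4.38% of all 27305 genes of the table, in 1 of these 7 members, IFIH1, and in 13 of the 15 output genes with a promoter there. Counted by promoter, 1 of the 8 promoters of the members and 16 of the 21 promoters of the output genes held a match. IFIT3, which rose, and IFIH1, which was not called, thus share this feature, and so does IFI44, which fell. The promoter of MAVS held no match; with 34 CG dinucleotides it had more than 84.4% of all promoters, and those of TBK1, RIGI and SAMHD1 held 35, 27 and 22, against a median of 14 over all promoters. The promoter of IFIH1 held 12 CG dinucleotides, below that median. IFI16 had 2 promoters in the table, with 1 and 3 CG dinucleotides, and the single promoter of TREX1 held 3 CG dinucleotides. A match describes the letters in the window and not a bound site. The bases before the start are shown for IFIH1 (chr2:162318685-162318839, minus strand) and IFIT3 (chr10:89327747-89327940, plus strand), with the matches in capitals, and for MAVS (chr20:3846584-3846798, plus strand), the member that fell, with CG dinucleotides in capitals. The stretches leave out annotated exons and the bases after the start. Thus 2 of the 3 matches in the window of IFIH1 are shown, with their first bases 153 and 21 bases before the start. Both matches in this window of IFIT3 are shown, 156 and 122 bases before its start. For MAVS, 23 of the 34 CG dinucleotides of the window are shown.
IFIH1: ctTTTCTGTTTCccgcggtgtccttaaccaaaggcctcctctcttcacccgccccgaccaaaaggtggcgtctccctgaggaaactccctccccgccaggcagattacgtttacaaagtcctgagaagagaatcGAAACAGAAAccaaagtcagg
IFIT3: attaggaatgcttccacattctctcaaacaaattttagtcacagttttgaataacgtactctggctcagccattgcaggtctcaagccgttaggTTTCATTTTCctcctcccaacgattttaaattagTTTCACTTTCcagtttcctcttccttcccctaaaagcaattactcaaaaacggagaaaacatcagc
MAVS: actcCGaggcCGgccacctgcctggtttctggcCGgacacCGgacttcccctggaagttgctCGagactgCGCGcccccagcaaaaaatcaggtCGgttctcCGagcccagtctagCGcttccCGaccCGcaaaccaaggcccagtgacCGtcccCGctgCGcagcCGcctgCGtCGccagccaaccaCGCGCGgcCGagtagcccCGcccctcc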

How the data were processed

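Polyadenylated RNA of U2OS cells was sequenced as single reads of 84 bases with a stranded kit. The authors aligned them to hg38 with STAR 2.7 and deposited raw counts, made with featureCounts 1.6 and Gencode release 25. How strand, overlapping genes and multi-mapping reads were handled is not given in the sources used here. Groups and replicate numbers come from the labels. Names, exon lengths and positions were taken from GENCODE release 44 on GRCh38, the same build, and 98.7% of tested genes matched by Ensembl identifier.

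The groups were compared by edgeR 4.0.16 under R 4.3.3 (filterByExpr, TMM factors, robust glmQLFit, glmQLFTest, Benjamini-Hochberg adjustment over 16143 genes, called under 0.01), which was tested on simulated data. Standard errors come from the quasi-likelihood F statistic. CPM used TMM-scaled library sizes, and CPM per kb used the union of a gene's exons. Within groups, each of 20 library pairs differed beyond sampling noise (chi-square per degree of freedom 1.84 to 6.18). The biological coefficient of variation was 3.65%. Floors of 3 reads cover counting error only. Correlations of log2 CPM used 0.5 CPM as a pseudocount.

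The members and the gene lists were chosen with earlier results of these data known. The text names DDX41, all members, up to 4 tested genes a list (those of smallest adjusted p), markers near 0, the 3 genes most correlated with the 2 members of widest change, and genes overlapping members. Some genes that this rule takes are not reported here. Alternatives were DESeq2 1.42.0 (size factors and test), limma 3.58.1 voom, no filter, a replicate block, a GC correction, other thresholds, each library left out, the longest transcript as length and, added after seeing the data, total counts without TMM factors.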

Additional observations from a re-analysis of the deposited data

Results flagged for a closer look

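In 7 of 112 groups of 5 libraries examined, 1 library stood apart from the other 4 by a gap of more than 0.71 of the whole range, and chance alone would set apart about 1 in 20 groups. MAVS stood at 58.8 CPM in DDX41 knockdown replicate 2, with the others between 51.3 and 53.5 CPM. The same library was the highest of its group for KRT14, at 2.87 CPM against 1.41 to 1.66, and for RUNX2, at 26.1 CPM against 24.1 to 24.4. It also had the highest DDX41 level of its group, 13.7 CPM against 11.2 to 12.4, and whether these values belong together was not tested. IKBKE stood at 17.9 CPM in control knockdown replicate 2, with the others between 16.1 and 16.3 CPM, and SPARC was lowest there, at 2750 CPM against 2810 to 2830. LSM11 stood at 28.3 CPM in DDX41 knockdown replicate 1, with the others between 23.0 and 24.5 CPM. IFI44 stood at 23.2 CPM in control knockdown replicate 3, with the others between 20.4 and 21.0 CPM.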

How the results depend on the processing

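Of 56 log2 fold changes of named genes, 53 kept their direction and their side of the threshold under all 18 alternatives run for them, and 0 reversed. The exceptions were SAMHD1, whose call was lost without any 1 of 3 libraries, VIM, whose call was lost with the GC correction with and without the block, and FN1, which was called with that correction and without control replicate 2 or 3. STING1 ranged from 1.53 to 1.66, MAVS from -0.75 to -0.65, TBK1 from 0.27 to 0.36, IRF3 from 0.35 to 0.46, CGAS from 0.26 to 0.35, SAMHD1 from 0.11 to 0.17 and IFIH1 from 0.13 to 0.19. IFI16 ranged from 0.095 to 0.18 and RIGI from 0.07 to 0.14, both lowest with the GC correction; the cause was not tested. With the replicate number as a replicate block, 4790 genes were higher and 5097 lower, and 6 sensing genes were higher and 1 lower, as without it. Deviations of same-numbered libraries from their group means correlated between -0.078 and 0.0598. Such values do not settle whether the libraries were prepared in pairs. At an adjusted p under 0.05, 8 sensing genes were higher, RIGI and IFIH1 included. With an absolute log2 fold change above 0.5 required in addition, 1584 genes were higher and 2534 lower, and 1 sensing gene was higher, since this demand removes smaller changes. Counts of the 8 lists moved by more than 1.5 times with that demand, except the lower interferon and output genes (3 in place of 4), and, for interferon receptors and kinases, with the GC correction and replicate block together (2 higher in place of 4). With the longest transcript in place of the exon union, control levels were 18.3 CPM per kb for IFI16, 15.8 for IRF3, 8.87 for SAMHD1, 8.70 for TBK1, 4.15 for RIGI, 3.37 for CGAS, 2.26 for IFIH1 and 1.62 for STING1, through the shorter length. Depth limits genes near 3 reads, such as RSAD2.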
